A study of Mus musculus with 4 samples.

Results

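The genes of the proteasome were examined in cultured primary myoblasts of wild type (WT) and Tet2 KO mice of the strain C57BL/6. They were taken as every gene of the expression table whose symbol begins with Psma, Psmb, Psmc, Psmd, Psme, Psmf or Psmg followed by a digit. This gave 50 of 24445 genes. Satellite cells, from which muscle regenerates, had been sorted from hindlimb muscle as live cells without CD45, CD11b, CD31 and Sca1 and with CD34 and integrin a7, and were grown on collagen in a proliferation medium (labelled T cell medium) for at least 3 days until they had become MyoD+ myoblasts. Tet2 KO mice lacked an exon of Tet2, which encodes an enzyme that oxidises methylated cytosine in DNA, in all tissues. Unless stated otherwise, the study used young adult male mice. RNA was sequenced from 2 libraries per group, which no label ties to separate animals or cultures, and the table gave 1 FPKM value per gene and group (fragments per kilobase of transcript, scaled to the number of mapped fragments). No spread between libraries was at hand, so no value below carries a standard deviation, no difference was tested, and "higher" and "lower" compare 2 pooled values.

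The proteasome is the protease complex that degrades ubiquitin-tagged proteins. Its core particle is a barrel of outer alpha rings and inner beta rings, and 3 of the beta subunits (Psmb5, Psmb6 and Psmb7) carry the catalytic sites. A regulatory particle with a ring of ATPases (Psmc subunits) and a set of non-ATPase subunits (Psmd subunits) caps the barrel, recognises and unfolds substrates and feeds them in. In immune cells, and in other cells exposed to interferon gamma, newly built core particles take up Psmb8, Psmb9 and Psmb10 in place of Psmb5, Psmb6 and Psmb7. This form is the immunoproteasome, which favours cleavage products that fit MHC class I molecules. In muscle the proteasome is best known for the breakdown of contractile proteins during atrophy.

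Of the 50 genes, 47 had a mean of at least 1 FPKM over the groups. The 3 below this level were Psma8, the alpha subunit of germ cells, with 0.0955 FPKM in Tet2 KO against 0.0717 in WT, Psmb11, the beta subunit of the thymus, with 0.0176 and 0.0436 FPKM, and Psme2b, a copy of Psme2, with 0.684 and 0.413 FPKM. One of the 47, Psmc3ip, shares only its name with the family. It encodes a partner of Psmc3 that acts in meiotic recombination, and its log2 ratio, as defined next, was 0.21 with 23.3 FPKM in Tet2 KO. The locus of Psmc3ip overlaps that of Mlx, so this value is uncertain.

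The difference between groups is given as log2((Tet2 KO FPKM + 1) / (WT FPKM + 1)), so that positive values mean a higher level in Tet2 KO. None of the 47 genes differed by 1.5-fold or more, with 0 higher and 0 lower. Among all 11692 genes with a mean of at least 1 FPKM, 3.72% were higher and 2.89% were lower by this measure. Since most proteasome genes were abundant, the 1896 genes with a mean of at least 50 FPKM are the closer background, and 1.32% of them were higher and 2.06% lower by 1.5-fold. Of the 39 proteasome genes at that level, 0 passed in either direction. The gene nearest to the threshold was Psmc4, 1.39-fold higher in Tet2 KO, followed by Psmb8, 1.23-fold higher in WT. At the lower fold tried as an alternative, which lies between these values, Psmc4 alone passed. This is 2.13% of the 47 genes, against 14.1% of all genes with a mean of at least 1 FPKM, and 2.56% of the 39 genes, against 7.54% of all genes with a mean of at least 50 FPKM.

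**Figure D1:**
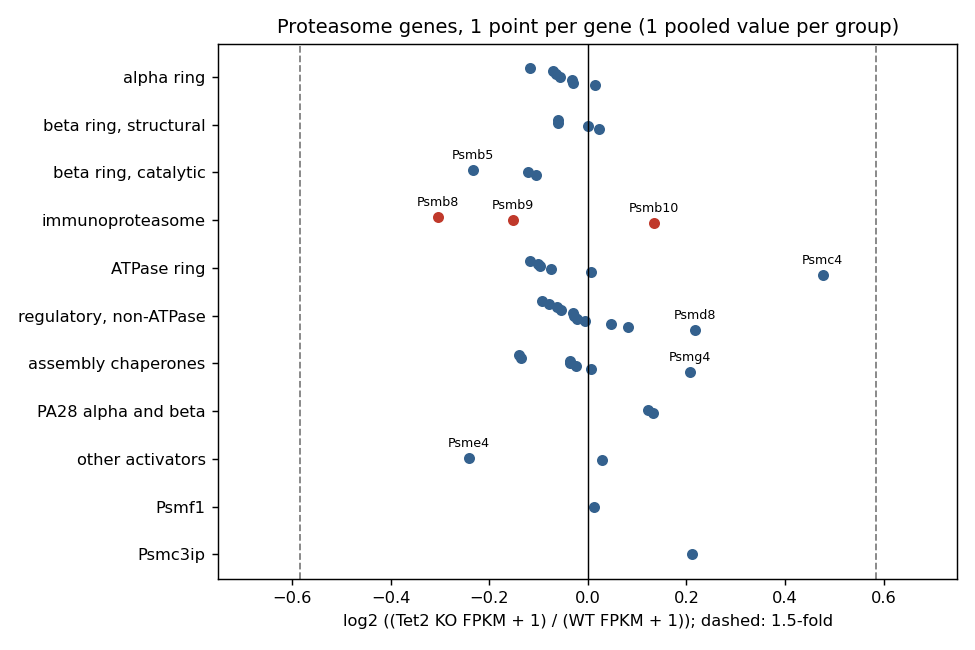
Log2 ratio of Tet2 KO to WT (horizontal axis, on the log2(FPKM + 1) scale) for the 47 proteasome-named genes with a mean of at least 1 FPKM, grouped by role on the vertical axis, with 1 point per gene and dashed lines at 1.5-fold. Every point lies between the dashed lines, from -0.30 for Psmb8 to 0.48 for Psmc4.

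The catalytic subunits of the immunoproteasome were abundant in both groups. Psmb8, which replaces Psmb5 and has chymotrypsin-like activity, is on chromosome 17, plus strand, at 34335140 to 34338399 in the mouse build mm9. It had 232 FPKM in Tet2 KO against 287 in WT, a log2 ratio of -0.30. Psmb9, which replaces Psmb6, lies on the minus strand of the same region, from 34319044 to 34324275. It had 165 FPKM in Tet2 KO against 183 in WT, a log2 ratio of -0.15. Psmb10, which replaces Psmb7 and has trypsin-like activity, is on chromosome 8, minus strand, at 108459628 to 108462292. It had 193 FPKM in Tet2 KO against 176 in WT, a log2 ratio of 0.13. The immunosubunits thus did not share a direction. Their median log2 ratio was -0.15, beside -0.0044 for all genes with a mean of at least 1 FPKM, and it was -0.0085 without Psmb8, -0.085 without Psmb9 and -0.23 without Psmb10. In WT, 98.8% of all genes in the table had a lower level than Psmb8, and in Tet2 KO 98.4% did. Among the 50 proteasome-named genes Psmb8 took rank 7 in WT and rank 14 in Tet2 KO, while Psmb10 took rank 25 in WT and rank 19 in Tet2 KO.

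The start regions of 4 proteasome genes are shown, as the stretches around an annotated start of transcription. Psmb8 and Psmb9 are induced catalytic genes, and Psmb5 is a constitutive one. Psme1 encodes an activator subunit, not a catalytic one, and is an example with a motif match. The region of Psmb10 is not shown. The regions run from 250 bases before to 50 bases after the annotated start. They come from RefSeq in the build GRCm38.p6, not in mm9. A set of 3 short motifs was searched on both strands, with N for any base. They were a pair of GAAA blocks with 2 bases of any kind between them, a form bound by interferon regulatory factors (IRF), GGGA and TTCC with 2 bases of any kind between them, a form bound by NF-kappaB, and TGACNNNGC, the antioxidant response form bound by Nfe2l1 and Nfe2l2. In the lines of Psme1 and Psmb5 the capitals mark the match to the IRF and the antioxidant response motif, respectively, and the line of Psmb8 has none. In the line of Psmb9 they mark the 275 bases that also belong to the window of Tap1, the gene of a peptide transporter that starts on the opposite strand.

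Psmb8 (chr17:34197945-34198244, plus strand): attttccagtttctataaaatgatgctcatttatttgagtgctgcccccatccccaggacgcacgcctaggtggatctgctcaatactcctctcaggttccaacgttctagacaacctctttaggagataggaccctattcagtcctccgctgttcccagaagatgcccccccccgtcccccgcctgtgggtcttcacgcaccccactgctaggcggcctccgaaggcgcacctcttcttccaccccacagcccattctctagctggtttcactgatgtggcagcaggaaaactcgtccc

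Psmb9 (chr17:34187281-34187580, minus strand): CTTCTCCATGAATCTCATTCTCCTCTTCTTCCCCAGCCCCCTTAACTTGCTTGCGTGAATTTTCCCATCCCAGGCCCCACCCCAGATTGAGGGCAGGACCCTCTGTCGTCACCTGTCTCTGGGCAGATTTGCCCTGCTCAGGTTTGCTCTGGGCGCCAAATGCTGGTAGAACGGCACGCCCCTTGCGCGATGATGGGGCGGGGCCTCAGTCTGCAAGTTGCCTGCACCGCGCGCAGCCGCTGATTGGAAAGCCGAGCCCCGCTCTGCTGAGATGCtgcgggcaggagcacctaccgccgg

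Psme1 (chr14:55578244-55578543, plus strand): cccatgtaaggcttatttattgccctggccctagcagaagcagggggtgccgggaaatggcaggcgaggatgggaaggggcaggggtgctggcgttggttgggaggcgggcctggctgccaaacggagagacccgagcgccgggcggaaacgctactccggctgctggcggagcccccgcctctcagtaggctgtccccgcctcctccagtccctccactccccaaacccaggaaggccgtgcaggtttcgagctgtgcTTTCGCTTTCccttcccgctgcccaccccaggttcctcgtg

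Psmb5 (chr14:54617946-54618245, minus strand): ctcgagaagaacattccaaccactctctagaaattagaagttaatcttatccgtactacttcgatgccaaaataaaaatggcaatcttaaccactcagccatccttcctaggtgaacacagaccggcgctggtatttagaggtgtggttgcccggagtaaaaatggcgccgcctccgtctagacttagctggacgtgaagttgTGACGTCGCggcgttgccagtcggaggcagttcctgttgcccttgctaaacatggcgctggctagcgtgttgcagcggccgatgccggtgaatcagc

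RefSeq windows were found for 42 of the 50 genes. The IRF motif occurred in 5 genes, Psmb3, Psmd4, Psmd9, Psme1 and Psmg4, against 3.44% of all 32851 windows. The NF-kappaB motif occurred in 1 gene, Psme4, against 1.47% of all windows. TGACNNNGC occurred in 6 of the 42 genes, among them the constitutive catalytic genes Psmb5 and Psmb6, against 12.4% of all windows, a share of about the same size. Members are counted here as genes and the background as windows, and the 42 genes had 45 windows. The windows of Psmb8, Psmb9 and Psmb10 held none of the 3 motifs. Sequence outside the windows was not searched. Another annotation, GENCODE vM1, places the start of Psmb8 in mm9 at 34334666, upstream of the 34335140 given above. It places that of Psmb9 at 34324697, upstream of 34324275. Motif matches describe letters only. The gene that shares its start region with Psmb9, Tap1, had 118 FPKM in Tet2 KO against 113 in WT, a log2 ratio of 0.06 beside -0.15 for Psmb9. Next to Psmb8 lies Tap2, which encodes the partner of Tap1 in the transporter, with 82.0 FPKM in Tet2 KO against 101 in WT. Its log2 ratio of -0.29 was close to the -0.30 of Psmb8. The order along the chromosome in mm9 was Psmb9, Tap1, Psmb8 and Tap2, and of these Tap1 alone was higher in Tet2 KO.

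Each immunosubunit was then set beside the constitutive subunit whose place it takes. FPKM is scaled to transcript length, so levels of different genes can be compared. Psmb5, the constitutive chymotrypsin-like subunit, had 162 FPKM in Tet2 KO against 191 in WT, a log2 ratio of -0.23. Psmb8 made up 58.8% of the summed FPKM of Psmb8 and Psmb5 in Tet2 KO and 60.0% in WT, and it was the only immunosubunit with a higher level than its counterpart. Psmb6, the caspase-like subunit, had 246 FPKM in Tet2 KO against 267 in WT, a log2 ratio of -0.12. Psmb9 made up 40.2% of that pair in Tet2 KO and 40.7% in WT. Psmb7, the trypsin-like subunit, had 311 FPKM in Tet2 KO against 335 in WT, a log2 ratio of -0.11. Psmb10 made up 38.4% of its pair in Tet2 KO and 34.5% in WT. Transcripts of both the constitutive and the immune form were therefore present at levels of the same order in WT as in Tet2 KO myoblasts. The share differed most between groups in the pair with Psmb10, by 3.87 percentage points, and by -1.18 and -0.53 points in the pairs with Psmb8 and Psmb9. Summed over the 3 pairs, the immunosubunits made up 45.1% in Tet2 KO and 44.9% in WT, while the sum itself was 1309 FPKM in Tet2 KO against 1439 in WT. The median difference of log2 ratio between an immunosubunit and its counterpart was -0.03. A near-identical copy elsewhere in the genome covered 99.9% of the Psmb5 transcript, so the level of Psmb5 and the share of its pair are uncertain.

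**Figure D2:**
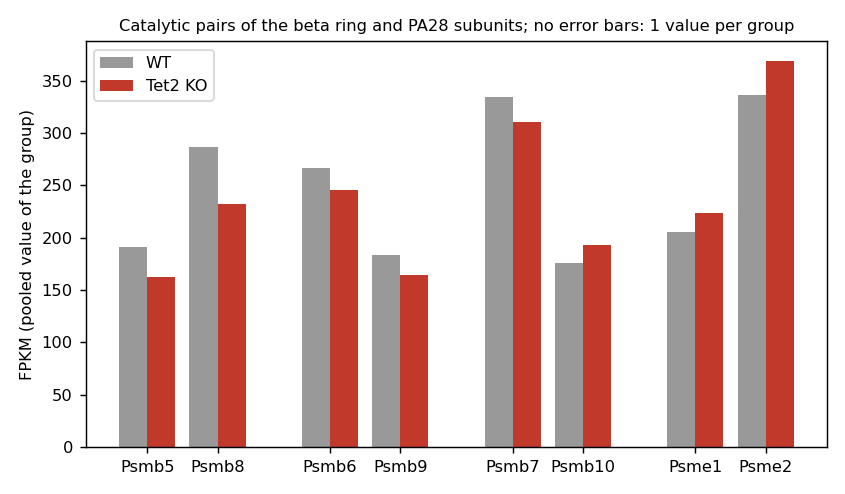
FPKM (vertical axis) of the constitutive and immune catalytic subunits, paired by place in the beta ring, and of the activator subunits Psme1 and Psme2, with grey bars for WT and red bars for Tet2 KO and 1 pooled value per bar. Psmb8 had 287 FPKM in WT and 232 FPKM in Tet2 KO, while Psmb10, Psme1 and Psme2 had the taller bar in Tet2 KO.

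The activators that open the core particle without ATP were compared next. Psme1 and Psme2 encode the alpha and beta subunits of the activator PA28, which like the immunosubunits is induced by interferon gamma. Psme1 had 224 FPKM in Tet2 KO against 206 in WT, and Psme2 had 369 and 337 FPKM. Their log2 ratios were 0.12 and 0.13, nearly alike, and close to the 0.13 of Psmb10. Psme2 was the most abundant of all 50 genes in Tet2 KO and the 4th in WT. Of the Psme2 transcript 82.5% was covered by a near-identical stretch elsewhere, and the locus of Psme1 overlaps that of Emc9, so both values are uncertain. Among the genes of the remaining activators, Psme3, which encodes the nuclear form of PA28, had 48.9 FPKM in Tet2 KO against 47.9 in WT. Psme4, which encodes PA200, the activator known from histone degradation, had 53.0 FPKM in Tet2 KO against 62.8 in WT. Its log2 ratio of -0.24 was exceeded in size only by those of Psmc4 and Psmb8 among the 47 genes. Psmf1, the gene of a core particle inhibitor, was the least abundant of the 47, with 7.79 FPKM in Tet2 KO against 7.71 in WT.

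Most of the 31 constitutive subunits of the core and regulatory particles differed little between groups, about as little as other abundant genes. Their median log2 ratio was -0.06, beside -0.0044 for all genes with a mean of at least 1 FPKM and 0.0089 for those with a mean of at least 50 FPKM. Of the 31 genes 23 (74.2%) were lower and 8 were higher in Tet2 KO, beside 51.2% lower among all genes with a mean of at least 1 FPKM and 46.1% lower among those with a mean of at least 50 FPKM. The differences were small: 23 of the 31 genes (74.2%) lay within 0.1 of 0 on the log2 scale, beside 64.0% of all genes with a mean of at least 50 FPKM. Subunits of 1 complex are not independent of each other, and the direction of differences of this size could not be weighed against the spread between libraries. The median size of the log2 ratio, regardless of sign, was 0.062 for the constitutive subunits and 0.070 for all genes with a mean of at least 50 FPKM. For all 39 proteasome-named genes at that level it was 0.079, and 59.0% of them lay within 0.1 of 0.

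Within the core particle the alpha ring, which gates the entry, ran from 147 FPKM (Psma3) to 352 FPKM (Psma7) in Tet2 KO and from 154 to 349 FPKM in WT for the same genes. Of its 7 genes 6 were lower in Tet2 KO, by at most -0.12 on the log2 scale (Psma4, from 276 FPKM in WT to 254 FPKM in Tet2 KO), and Psma7 had a log2 ratio of 0.01. Psma1, Psma2, Psma5 and Psma6 had between 204 and 288 FPKM in Tet2 KO. The structural beta subunits were steadier still. Psmb4 had 344 FPKM in Tet2 KO against 343 in WT, and Psmb3 had 352 and 367 FPKM. Psmb1 and Psmb2 had log2 ratios of -0.06 and 0.02. All 3 constitutive catalytic genes, in contrast, had log2 ratios below those of every structural beta gene. This was not particular to catalytic genes, since Psma4 and Psmc1, both at -0.12, lay below Psmb7 at -0.11. Near-identical stretches elsewhere covered 99.9% of the Psmb5, 97.4% of the Psmb3 and 99.7% of the Psma4 transcript, so these values are uncertain. Summed over the core particle, the constitutive subunits had 3582 FPKM in Tet2 KO against 3736 in WT, a difference of -4.13% relative to WT, beside -9.33% for the catalytic trio alone.

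The regulatory particle held the gene that stood farthest from the rest. Psmc4, which encodes an ATPase of the ring, lies on chromosome 7 from 28826721 to 28835111 in mm9, and had 177 FPKM in Tet2 KO against 127 in WT, a log2 ratio of 0.48. The other 5 ATPases, which form the same ring in equal numbers, ran from -0.12 for Psmc1 to 0.01 for Psmc2. Psmc3, Psmc5 and Psmc6 had log2 ratios of -0.07, -0.10 and -0.10. Among the 6 ATPases Psmc4 was thus the 5th in level in WT, above Psmc2 at 116 FPKM, and the 4th in Tet2 KO. No near-identical stretch elsewhere in the genome and no overlapping locus was found for Psmc4. Of the 11 non-ATPase subunits 8 were lower and 3 were higher in Tet2 KO, and 10 lay within 0.1 of 0. The exception was Psmd8, a subunit of the lid, with 208 FPKM in Tet2 KO against 179 in WT, a log2 ratio of 0.22. Psmd14, which encodes the enzyme that removes ubiquitin chains from substrates, had 158 FPKM in Tet2 KO against 161 in WT. Psmd4, a gene of a ubiquitin receptor, had 198 and 206 FPKM. The scaffold subunits Psmd1 and Psmd2 had 145 and 253 FPKM in Tet2 KO and 148 and 265 FPKM in WT. The remaining subunits Psmd3, Psmd6, Psmd7, Psmd12 and Psmd13 had log2 ratios of 0.05, -0.08, -0.02, -0.01 and -0.09. Psmd11, a subunit of the lid, was the least abundant constitutive subunit, with 60.6 FPKM in Tet2 KO against 57.3 in WT. Summed over its 17 genes the regulatory particle had 2734 FPKM in Tet2 KO against 2746 in WT, a difference of -0.453% relative to WT. The sum includes Psmc4, with 177 FPKM in Tet2 KO against 127 in WT. Of the 17 genes 12 were lower in Tet2 KO, and the median log2 ratio of all 17 was -0.03.

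**Figure D3:**
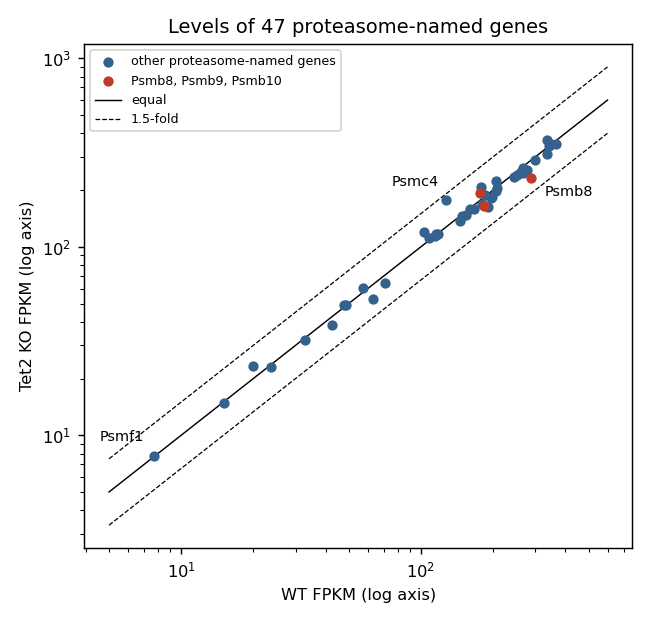
Level in Tet2 KO against level in WT (FPKM, log axes) for the 47 proteasome-named genes with a mean of at least 1 FPKM, with red points for Psmb8, Psmb9 and Psmb10, a solid line at equality and dashed lines at 1.5-fold. All points lie between the dashed lines, from Psmf1 at 7.79 FPKM in Tet2 KO to Psme2 at 369 FPKM.

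The genes of the assembly chaperones ran from 14.9 FPKM (Psmd9) to 119 FPKM (Psmg4) in Tet2 KO, and 6 of the 7 lay below all constitutive subunits other than Psmd11. Psmg1, Psmg2, Psmg3 and Psmg4 guide the building of the alpha ring, and had 49.1, 38.4, 32.1 and 119 FPKM in Tet2 KO beside 48.9, 42.4, 32.9 and 103 FPKM in WT. Psmg4 had the highest log2 ratio of these chaperones, 0.21. Psmd5, Psmd9 and Psmd10 (gankyrin) guide the building of the ATPase ring and had 64.2, 14.9 and 23.0 FPKM in Tet2 KO beside 70.7, 15.1 and 23.6 FPKM in WT. The median log2 ratio of the 7 chaperones was -0.04, with 5 lower and 2 higher. Pomp, the chaperone that closes the beta rings and whose symbol lies outside the family, had 222 FPKM in Tet2 KO against 223 in WT.

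The other proteasome genes without a Psm symbol were read from a list. Of its 10 genes, 8 were found under the listed symbols and a ninth, the lid subunit Shfm1, under its newer symbol Sem1, with 428 FPKM in Tet2 KO against 414 in WT. Of the 9 genes 0 passed 1.5-fold, 6 were higher and 3 lower in Tet2 KO, and the median was 0.03. Adrm1, a ubiquitin receptor, and Uchl5, the deubiquitinase bound to it, had log2 ratios of 0.04 and 0.08. Usp14, the deubiquitinase that binds the regulatory particle next to the ATPases, had 48.3 FPKM in Tet2 KO against 34.1 in WT, and its log2 ratio of 0.49 was about that of Psmc4. Among the genes of proteasome gene control, Nfe2l1, the transcription factor that raises proteasome genes when the protease is impaired, had 41.0 and 45.5 FPKM. Nfe2l2, which raises them in oxidative stress, had 77.9 and 92.1 FPKM, a log2 ratio of -0.24. None of the 8 genes of this list passed 1.5-fold, and their median was -0.06. The 4 genes read for ubiquitin and its activating enzymes had a median of -0.0068, with 2 higher and 2 lower and 0 past 1.5-fold.

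Genes known to induce the immunoproteasome were examined in the same way. Ifng, the gene of interferon gamma, was listed at 0 in both groups. The 8 other genes of the list had a higher level in Tet2 KO throughout, by a median log2 ratio of 0.21, with 0 of 8 lower, beside 51.2% lower among all genes with a mean of at least 1 FPKM. Of the 8 genes 1 was higher by 1.5-fold, beside 3.72% of all genes. This was Tnf, the gene of tumour necrosis factor, with 2.29 FPKM in Tet2 KO against 0.699 in WT. Its mean of 1.49 FPKM was little above the 1 FPKM needed to be counted. Ifngr1 and Ifngr2, the receptor genes, had log2 ratios of 0.22 and 0.33. Irf1, the factor through which interferon gamma acts on Psmb9 and Tap1, had 202 FPKM in Tet2 KO against 182 in WT. The 11 genes of MHC class I presentation had a median of 0.06, with 6 higher and 5 lower and 0 past 1.5-fold. They ran from -0.48 for H2-D1 to 0.25 for H2-K1, both of which encode class I heavy chains, and B2m, the shared light chain, had 936 FPKM in Tet2 KO against 967 in WT. Near-identical copies and overlapping loci were searched for the proteasome-named genes only, so the values of H2-D1 and H2-K1 were not checked for them. The 10 genes of the interferon response had a median of -0.03, with 5 higher and 5 lower. They ran from -0.28 for Ifit1 to 0.47 for Gbp2, and 0 passed 1.5-fold. In the same libraries Psmb10, Psme1 and Psme2 were higher and Psmb8 and Psmb9 were lower in Tet2 KO.

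**Figure D4:**
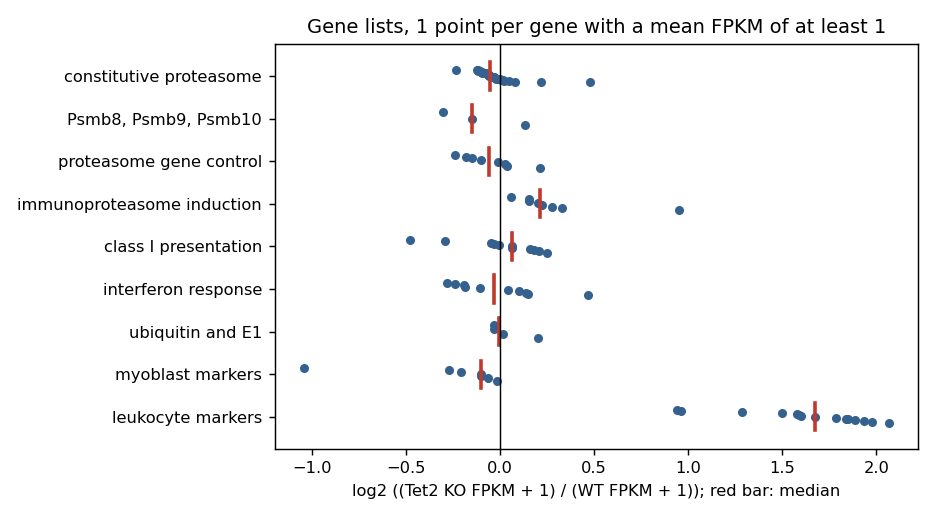
Log2 ratio of Tet2 KO to WT (horizontal axis, on the log2(FPKM + 1) scale) for the genes of 9 lists with a mean of at least 1 FPKM, with 1 point per gene and a red bar at the median of each list. The leukocyte markers lie between 0.94 and 2.07, and the constitutive proteasome lies between -0.23 and 0.48.

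Markers of cell types are given because leukocytes hold immunoproteasomes. Each of the 15 leukocyte markers was higher in Tet2 KO by more than 1.5-fold, against 3.72% of all genes, and their median log2 ratio was 1.67, from 0.94 for Cd68 to 2.07 for Lyz2. Their summed level was 537 FPKM in Tet2 KO against 136 in WT, and Ptprc, which encodes CD45, had 5.67 and 1.36 FPKM. Over the same libraries the summed level of Psmb8, Psmb9 and Psmb10 was 590 FPKM in Tet2 KO against 646 in WT. The part of leukocyte RNA in the values of the immunosubunits, Psme1 and Psme2 was not tested. Nor was its part in the values of Tnf and the other genes known to induce the immunoproteasome. The 8 lymphocyte markers had at most 0.206 FPKM in Tet2 KO and at most 0.114 FPKM in WT. Of the endothelial markers 1 of 5, Pecam1, reached a mean of 1 FPKM, with 1.48 FPKM in Tet2 KO against 1.63 in WT. Of the 6 fibroblast markers 4 reached a mean of 1 FPKM, and all 4 had the higher level in Tet2 KO (median 0.41 on the log2 scale). Dcn, at 7.04 and 3.15 FPKM, passed 1.5-fold, while Pdgfra had 1.91 and 1.06 FPKM and Col1a1 had 2.84 and 2.07 FPKM. Lum, at 0.456 and 0.199 FPKM, and Dpt, at 0.0250 and 0.0363 FPKM, lay below that level. Ly6a, the remaining marker above it, which encodes the Sca1 absent from the sorted cells, had 288 FPKM in Tet2 KO against 278 in WT. All 7 myoblast markers were lower in Tet2 KO, beside 51.2% of all genes, but 3 of them lay within 0.1 of 0 and 1 passed 1.5-fold. This was Myog, a gene of early differentiation, at 268 and 554 FPKM. The other 6 ran from -0.27 for Des to -0.02 for Pax7, and Myod1 had 313 and 336 FPKM. In bulk RNA, fewer cells of a type and less RNA per cell cannot be told apart.

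The targeted gene, Tet2, was listed with 5.79 FPKM for the KO libraries and 6.64 FPKM for WT. The value covers all exons and so does not check the labels. Depth was not stated, but the low values of genes with a single annotated transcript clustered at whole multiples of 1 step once multiplied by transcript length less 200 bases. Of 941 low values in Tet2 KO 81.7% lay within 0.15 steps of a whole number, and of 1129 in WT 80.8% did. The step was taken as the median of the values inside a preset window, so its size depends in part on that window. The values in that window also entered these shares, and the share for evenly spread values was not computed. Transcript lengths came from the annotation GENCODE vM1, which may differ from the one the authors used. Read as 1 fragment, the step was worth 0.0179 FPKM times kilobases in Tet2 KO and 0.0180 in WT. A transcript of 1000 bases at 100 FPKM would then rest on about 4472 fragments in Tet2 KO, with a counting error of 1.5% (SD). This estimate covers counting error only, and the spread between animals and libraries is unknown.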

How the data were processed

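RNA of cultured primary myoblasts was measured in 2 WT and 2 Tet2 KO libraries (TruSeq RNA kit). Per the study's methods and the submitters' processing notes, the authors removed adapters and poor bases, mapped the read pairs to mm9 with TopHat2 2.0.13 and estimated expression with Cuffdiff 2.2.1. The gene annotation and the way the libraries of a group were combined are not given in the sources used here. The table deposited by the authors held 1 FPKM value per gene and group, read here as pooled. Its remaining columns hold the authors' own comparison (log2 ratio, test statistic, p-value, q-value) and were not used. No column of unknown sample was present.

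Log2 ratios were taken from the FPKM values with a pseudocount of 1, which understates the change of low genes, for genes with a mean of at least 1 FPKM. With 1 value per group no test was possible, and genes were counted past 1.5-fold beside the share of all genes. Every proteasome-named gene is accounted for, and genes of the other pathway lists were named to give the range of a list, any gene past 1.5-fold, and those whose role the text needs. Cell type marker lists are given by counts with examples, chosen after their values were seen. The members and lists were chosen with earlier results of these data known. Of the listed symbols, Psme2b-ps, Shfm1 and Paaf1 were not matched, and Shfm1 was found as Sem1.

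Starts have 1 added, because the table counts from 0. Of the 50 genes 49 were found in GENCODE vM1, an annotation of the same build. Their longest coding transcripts were searched against the genome with BLAST+ 2.17.0 for stretches of at least 100 bases with at least 97% identity outside the gene. Calculations used Python 3.11.15, numpy 2.4.6, pandas 2.3.3 and matplotlib 3.10.9, and were checked on simulated data. Alternatives were the pseudocount, the filter, the fold, TPM scaling, median centring, leaving out members, and another partner for the catalytic shares. Some results of the lists and motifs are not reported here.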

Additional observations from a re-analysis of the deposited data

How the results depend on the processing

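No paired analysis was possible because each group has a single pooled FPKM value per gene, and for the same reason no library could be left out. Under pseudocounts of 0.1 and 0, no filter, a mean of at least 5 FPKM, TPM and median centring, the median of the constitutive subunits lay between -0.056 and -0.051, that of Psmb8, Psmb9 and Psmb10 between -0.152 and -0.147, and the median difference between the pairs between -0.0315 and -0.0311. TPM moved the median of all genes by 0.0031. In each of these, 23 constitutive subunits were lower in Tet2 KO and 0 genes of the family passed 1.5-fold, and none of 282 single values moved by 0.1 or more. These settings could move little. Psmf1, the least abundant of the 47 genes, had 7.71 FPKM in WT, so the filters removed none of them and the pseudocounts weighed little. TPM and median centring shift all genes by about the same amount. Leaving out 1 constitutive subunit at a time gave medians from -0.0585 to -0.0548. The median of the immunosubunits moved to -0.0085 without Psmb8, since Psmb9 and Psmb10 lie on opposite sides of 0. At the lower fold tried, which lies between the 1.23-fold of Psmb8 and the 1.39-fold of Psmc4, 1 gene passed as higher and 0 as lower. With the mean of Psmb5, Psmb6 and Psmb7 as the partner, the share of Psmb8 was 49.2% in Tet2 KO and 52.0% in WT, and that of Psmb10 was 44.7% and 40.0%, by construction, since the partner differs.

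Near-identical stretches covered at least 50% of the transcript for 7 of 49 genes (Psma4, Psma5, Psmb3, Psmb5, Psmd2, Psmd11 and Psme2). Of 50 loci, 7 overlapped another gene (Psma3, Psma4, Psmb5, Psmc3ip, Psmd1, Psme1 and Psme2b). In an alternative chosen after seeing the data, the 23 constitutive subunits with neither had a median of -0.054, with 16 lower.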
